A study of Mus musculus with 6 samples.

Results

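The genes that encode the brakes of the cell cycle were examined in satellite cells (SCs), the muscle stem cells, of WT and *Ltf*-KO mice. They were chosen by gene name as the CDK inhibitors *Cdkn1a*, *Cdkn1b*, *Cdkn1c*, *Cdkn2a*, *Cdkn2b*, *Cdkn2c* and *Cdkn2d* and the pocket protein genes *Rb1*, *Rbl1* and *Rbl2*. These are 10 of 55416 genes in the deposited table, and each name occurs on 1 row. RNA was sequenced from 6 libraries, 3 of WT and 3 of *Ltf*-KO SCs. In the knockout mice, lactoferrin was deleted in all tissues by CRISPR-Cas9 editing of C57/BL6N zygotes. SCs negative for Sca1 and CD11b and positive for CD34 and α7-integrin were sorted from the hind leg muscle of mice aged 8 to 10 weeks. Both genotypes then grew for 4 days in medium that held fetal bovine serum at 20%, chick embryo extract at 1% and basic fibroblast growth factor at 10 ng/ml, with no other treatment. The labels do not say whether the libraries of a genotype came from separate animals, so p-values measure only the spread between these libraries, which may be technical.

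An SC that divides as a myoblast must leave the cell cycle before it fuses into a muscle fiber, and the products of these genes carry out that exit. The CIP/KIP proteins p21 (*Cdkn1a*), p27 (*Cdkn1b*) and p57 (*Cdkn1c*) bind cyclin and kinase together and block the CDK2 complexes. The INK4 proteins p16 (*Cdkn2a*), p15 (*Cdkn2b*), p18 (*Cdkn2c*) and p19 (*Cdkn2d*) bind CDK4 and CDK6 and keep the D cyclins off them. The pocket proteins pRb (*Rb1*), p107 (*Rbl1*) and p130 (*Rbl2*) hold E2F factors until cyclin-dependent kinases phosphorylate them. In myoblasts, p21 is induced by MyoD, and pRb is needed to keep differentiated muscle cells out of the cycle. p27 is controlled largely by its degradation and pRb by phosphorylation, neither of which is seen in RNA. *Cdkn2a* also encodes p19Arf, which stabilizes p53 and is unrelated to p16 in sequence.

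The stretches upstream of 3 of these genes are shown because they hold the letters of known regulators of the brakes. Each stretch holds the 100 bases before the most upstream annotated start at that site, from RefSeq on GRCm38.p6, 5′ to 3′ on the strand of the gene, with the matched motifs in capitals. The *Cdkn1a* stretch at chr17:29090876-29090975 (+ strand) lies before its upstream start and holds a p53 site of 20 bases with 1 letter off the consensus. The *Cdkn1a* stretch at chr17:29093669-29093768 (+ strand) lies before its downstream start and holds a GC box, the letters GGGCGG bound by Sp1. The Arf stretch of *Cdkn2a* at chr4:89294654-89294753 (- strand) holds an E2F motif and a GC box, and the Ink4a stretch at chr4:89282193-89282292 (- strand) holds none of the motifs searched. The *Rbl1* stretch at chr2:157204535-157204634 (- strand) holds an E2F motif.
*Cdkn1a*, upstream start: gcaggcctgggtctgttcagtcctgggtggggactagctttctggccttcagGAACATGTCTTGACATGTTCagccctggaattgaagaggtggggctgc
*Cdkn1a*, downstream start: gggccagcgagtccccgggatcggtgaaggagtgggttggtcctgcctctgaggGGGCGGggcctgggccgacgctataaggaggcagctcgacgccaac
*Cdkn2a*, Arf start: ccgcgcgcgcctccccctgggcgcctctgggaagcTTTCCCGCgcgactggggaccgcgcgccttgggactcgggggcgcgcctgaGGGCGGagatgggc
*Cdkn2a*, Ink4a start: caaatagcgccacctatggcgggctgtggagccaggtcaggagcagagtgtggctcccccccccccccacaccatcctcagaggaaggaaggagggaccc
*Rbl1*: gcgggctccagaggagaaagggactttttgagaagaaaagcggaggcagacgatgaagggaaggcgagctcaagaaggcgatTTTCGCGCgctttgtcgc

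Of the 10 genes, 8 were in the promoter table, with 11 windows of 250 bases before a start. The E2F motif, searched on both strands as TTTCCCGC, TTTGGCGC, TTTCGCGC or TTTGCCGC, was in 1.86% of all 32851 windows and in those of *Rbl1* and of the Arf start of *Cdkn2a*. The p53 site, allowed 2 letters off the consensus, was in 0.271% of all windows and, among the brakes, in that of *Cdkn1a*. The GC box was in 32.7% of all windows and in 6 of the 11, those of *Cdkn1a*, *Cdkn1b*, *Cdkn2a*, *Cdkn2c*, *Cdkn2d* and *Rbl1*. The letters TTTGAA of the CHR element, through which the DREAM repressor complex acts, were in 16.0% of all windows and in those of *Cdkn2b* and *Rbl2*. The E-box CAGCTG, a form preferred by MyoD, was in 13.0% of all windows and in that of *Rbl1*. A match describes the letters of the window and is not a measured binding site.

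The authors deposited RNA levels as TPM (transcript abundance on a common total), a unit that corrects for gene length, so that the levels of different genes can be compared. The TPM values summed to between 993650 and 994356 per library, which leaves the read depth unknown. Of all genes, 12828 to 12951 per library were at 1 TPM or more. The deleted gene, *Ltf*, was listed at 0.12, 0.02 and 0.02 TPM in WT and at 0.02, 0.03 and 0 TPM in *Ltf*-KO SCs, so it was near the floor in both and is no check of the labels. The 8 markers of SCs and myoblasts summed to 1884 to 1942 TPM in WT and 1916 to 1967 TPM in *Ltf*-KO SCs, with *Pax7* at 36.6 to 43.3 TPM and *Myod1* at 748 to 816 TPM. Of 8 leukocyte markers, 5 (*Ptprc*, *Itgam*, *Adgre1*, *Ly6g* and *S100a8*) were at 0 in at least 1 library, though *S100a8* reached 1.54 TPM. Of the others, *Csf1r* was at 0.05 to 0.39 TPM, *Cd68* at 3.12 to 3.98 TPM and *Lyz2* at 0.38 to 7.22 TPM. The 8 markers summed to 5.76 to 13.02 TPM in WT and 3.59 to 5.94 TPM in *Ltf*-KO SCs.

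The RNA of the brakes was dominated by *Cdkn1a* in every library. *Cdkn1a* had a mean of 497.4 TPM over the 6 libraries and made up 69.9% to 73.3% of the summed TPM of the 10 genes. Its level was above that of 97.8% of the 12956 genes tested, which are those with a mean of at least 1 TPM. *Cdkn2a* followed at 56.3 TPM, *Cdkn2c* at 31.7 TPM and *Cdkn2d* at 26.2 TPM. Each of these 4 genes was above the next one without overlap of their 6 libraries, and *Cdkn2d* was likewise above *Cdkn1b*. *Cdkn1b* (17.8 TPM), *Rb1* (17.03 TPM), *Rbl1* (15.99 TPM) and *Cdkn2b* (15.62 TPM) formed a middle group whose neighbours overlapped. *Rbl2* (8.19 TPM) and *Cdkn1c* (5.27 TPM) were the lowest of the 10, and these also overlapped each other. On the same scale the kinase gene *Cdk4* was at 348 to 374 TPM and its partner *Ccnd1*, which encodes cyclin D1, at 318 to 331 TPM, below *Cdkn1a* in every library, while *Cdk6* was at 17.7 to 28.2 TPM.

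**Figure D1:**
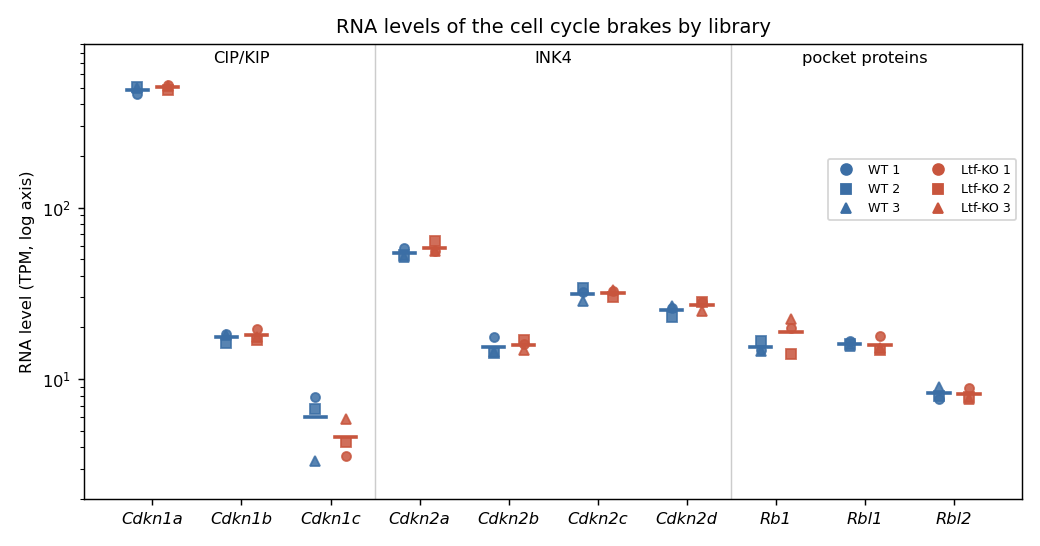
RNA level in TPM on a log axis of the 10 brakes in each library. Blue marks are WT and red marks are *Ltf*-KO libraries, mark shapes give the replicate number and bars are the means of 3 libraries. *Cdkn1a* lies between 462 and 521 TPM, and the libraries of the genotypes overlap for all 10 genes.

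The comparison of genotypes asked whether the RNA of these brakes differed in SCs that lack *Ltf*. Differences were tested with limma on the log2(TPM + 1) scale, on which changes of genes with low TPM are understated, with Benjamini-Hochberg adjustment over the 12956 genes tested. All 10 brakes passed the filter on low levels. Of the 10, 0 had an adjusted p under 0.05 and the adjusted p from limma was 0.999 for each, where 0 of all 12956 genes tested (0%) were called. At an unadjusted p under 0.05 from limma, the counts were 0 of 10 brakes and 490 of all genes, which is 3.78%. The 3 WT and 3 *Ltf*-KO values overlapped for all 10 brakes, and did not overlap for 1096 of all genes tested, which is 8.46%. The log2 fold change of *Ltf*-KO against WT was above 0 for 7 brakes and below 0 for 3, with a median of 0.040 beside 0.011 for all genes tested, of which 55.7% were above 0. The median absolute log2 fold change was 0.052 for the brakes and 0.058 for all genes tested. The 95% confidence intervals of *Cdkn1c* and *Rb1* were wide, and those of the other 8 brakes lay between 0.854-fold and 1.22-fold.

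**Figure D2:**
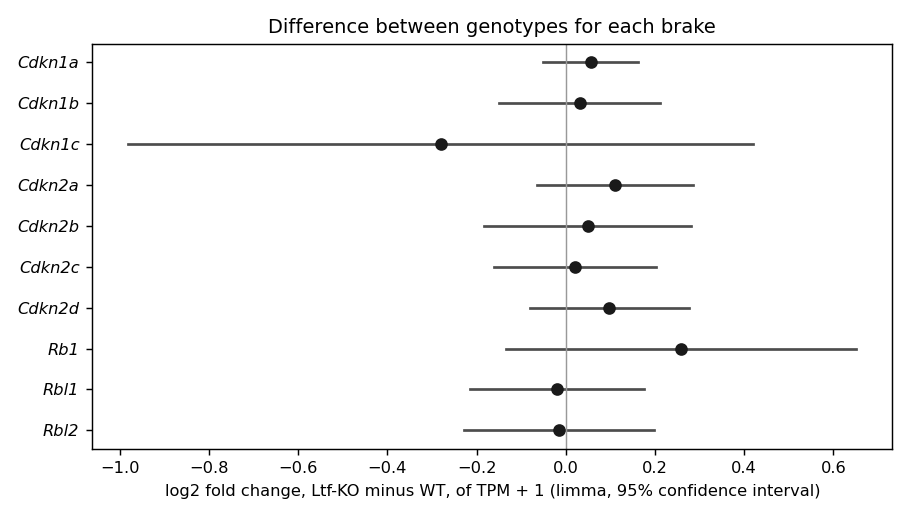
Log2 fold change of TPM + 1 in *Ltf*-KO against WT SCs for each brake, with points for the limma estimate and lines for its 95% confidence interval (3 libraries per genotype). All 10 intervals include 0, and those of *Cdkn1c* and *Rb1* are the widest.

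Among the CIP/KIP genes, *Cdkn1a* (ENSMUSG00000023067, chromosome 17) was at 462.18, 503.24 and 497.99 TPM in WT and at 520.96, 487.81 and 511.94 TPM in *Ltf*-KO SCs. The lowest value was a WT and the highest an *Ltf*-KO library, and *Ltf*-KO replicate 2 lay below WT replicates 2 and 3. The means were 487.8 ± 22.3 TPM in WT and 506.9 ± 17.1 TPM in *Ltf*-KO (SD, n = 3). The log2 fold change was 0.056 (SE 0.045), and its 95% confidence interval ran from 0.965-fold to 1.12-fold. Without *Ltf*-KO replicate 2 the groups did not overlap, as for 18.8% of all genes tested. The log2 fold change was then 0.083, while without WT replicate 1 it was 0.017.

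*Cdkn1b*, which encodes p27 (ENSMUSG00000003031, chromosome 6), was at 18.3, 16.32 and 18.15 TPM in WT and at 19.53, 16.98 and 17.51 TPM in *Ltf*-KO SCs. Its values were mixed between the genotypes, with a log2 fold change of 0.031 (SE 0.075, 95% confidence interval -0.15 to 0.21). p27 is marked for degradation by the SCF ligase with its receptor Skp2 and cofactor Cks1. Of 6 genes of that ligase tested, 0 had an unadjusted p under 0.05, and the lowest p was that of the adaptor *Skp1*, at 201.3 ± 7.95 TPM in WT and 210.1 ± 3.28 TPM in *Ltf*-KO SCs (SD, n = 3).

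*Cdkn1c*, the imprinted gene of p57 (ENSMUSG00000037664, chromosome 7), varied most of the 10 between libraries. It was at 7.9, 6.68 and 3.33 TPM in WT and at 3.54, 4.31 and 5.85 TPM in *Ltf*-KO SCs. WT replicate 3 held the lowest value of all 6 libraries and the other WT replicates the highest values, so the spread within WT covered the *Ltf*-KO range. The means were 5.97 ± 2.37 TPM and 4.57 ± 1.18 TPM (SD, n = 3), and the log2 fold change was -0.28 (SE 0.29), with a 95% confidence interval from 0.507-fold to 1.34-fold. The SD of its log2 values over the 6 libraries was above that of 92.4% of the 3183 tested genes within 2-fold of its level. Without WT replicate 3 the groups did not overlap, as for 17.9% of all genes tested. The log2 fold change was then -0.59 (limma, adjusted p = 1), past the unadjusted threshold of 0.05. Leaving out WT replicate 1 gave -0.072, WT replicate 2 gave -0.18, *Ltf*-KO replicate 1 gave -0.14 and *Ltf*-KO replicate 3 gave -0.44.

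The 3 libraries with the least *Cdkn1c*, WT replicate 3 and *Ltf*-KO replicates 1 and 2, were those with the most RNA of 6 endothelial markers. The markers summed to 7.56, 5.8 and 14.59 TPM in WT and to 11.73, 13.67 and 5.74 TPM in *Ltf*-KO SCs. Of the 6 markers, 2 (*Tek* and *Tie1*) were under 1 TPM in every library, and *Cdh5* and *Pecam1* were at no more than 4.97 and 2.71 TPM. *Kdr* did not follow the sum, with its lowest value (1.31 TPM) in *Ltf*-KO replicate 1. The sort took Sca1-negative cells, a gate that leaves out the endothelial cells that carry Sca1. The paper also lists antibodies to CD31 and CD45 in the staining, which its stated gate does not name. The 5 Schwann cell markers summed to 21.06, 28.32 and 37.36 TPM in WT and to 28.93, 37.06 and 25.23 TPM in *Ltf*-KO SCs, and were highest in the same 3 libraries. In bulk RNA, fewer cells of a type and less RNA per cell cannot be told apart, and the part of these markers in the *Cdkn1c* values was not tested.

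The 4 INK4 genes all had a log2 fold change above 0, also with quantile normalization and median-of-ratios scaling, and 3 of the 4 did without WT replicate 2, WT replicate 3 or *Ltf*-KO replicate 3. *Cdkn2a* (ENSMUSG00000044303, chromosome 4) was at 57.89, 52.92 and 51.43 TPM in WT and at 55.85, 63.95 and 55.72 TPM in *Ltf*-KO SCs. The highest value was *Ltf*-KO replicate 2, and WT replicate 1 lay above the other *Ltf*-KO libraries. The log2 fold change was 0.11 (SE 0.073, 95% confidence interval -0.064 to 0.29). It was 0.16 without WT replicate 1, where the groups did not overlap, as for 17.3% of all genes tested. Without *Ltf*-KO replicate 2 it was 0.046. GENCODE M21 gives *Cdkn2a* 2 transcripts, for Ink4a and Arf, which share 575 bases of 852 and 895, and the deposited value is 1 number per gene, so p16 and p19Arf RNA cannot be told apart.

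*Cdkn2b*, the neighbour of *Cdkn2a* on chromosome 4 and a TGF-β target (ENSMUSG00000073802), was at 17.51, 14.21 and 14.36 TPM in WT and at 15.96, 16.97 and 14.71 TPM in *Ltf*-KO SCs. WT replicate 1 was the highest of all 6, and without it the groups did not overlap, as for 17.3% of all genes tested. The log2 fold change was then 0.14, while without WT replicate 2 it was -0.00060. With all libraries its log2 fold change was 0.049 (SE 0.096, 95% confidence interval -0.18 to 0.28). *Cdkn2c*, which encodes p18 (ENSMUSG00000028551, chromosome 4), was at 32.12, 33.77 and 28.47 TPM in WT and at 32.59, 29.93 and 33.09 TPM in *Ltf*-KO SCs, with both extremes in WT. Its log2 fold change was 0.021 (SE 0.076, 95% confidence interval -0.16 to 0.20). *Cdkn2d*, which encodes p19 of the INK4 family (ENSMUSG00000096472, chromosome 9), was at 25.88, 23.12 and 26.73 TPM in WT and at 28.13, 27.96 and 25.11 TPM in *Ltf*-KO SCs. *Ltf*-KO replicate 3 was the only one of its group below a WT library, and the log2 fold change was 0.098 (SE 0.074, 95% confidence interval -0.081 to 0.28).

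The INK4 genes together summed to 126.1 ± 6.47 TPM in WT and 133.3 ± 5.14 TPM in *Ltf*-KO SCs (SD, n = 3), with overlap. Set against their targets *Cdk4* and *Cdk6* in the same library, the INK4 sum was 33.2%, 33.1% and 33.0% of the summed kinase TPM in WT and 35.6%, 36.7% and 33.8% in *Ltf*-KO SCs. The percentages of the genotypes did not overlap, with *Ltf*-KO replicate 3 nearest to WT, while the INK4 sum and the kinase sum each overlapped. Of all genes tested, 8.46% did not overlap, but this is a share of single genes, and none was computed for ratios of sums. The sum includes *Cdkn2a*, whose value also counts RNA of Arf, a protein that does not bind these kinases. This is 1 of 2 ratios computed, neither of them planned, and it is given as a description with no test. The other, the CIP/KIP sum as a percentage of the summed D cyclins, was 79.7% ± 3.49 in WT and 79.97% ± 4.09 in *Ltf*-KO SCs (SD, n = 3).

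Among the pocket protein genes, *Rb1* (ENSMUSG00000022105, chromosome 14) was at 14.68, 16.62 and 14.54 TPM in WT and at 19.92, 14.03 and 22.39 TPM in *Ltf*-KO SCs. *Ltf*-KO replicates 1 and 3 lay above all WT libraries, and *Ltf*-KO replicate 2 below them all. The means were 15.28 ± 1.16 TPM in WT and 18.78 ± 4.30 TPM in *Ltf*-KO (SD, n = 3). The log2 fold change was 0.26 (SE 0.16), with the lowest p of the 10 brakes and a 95% confidence interval from 0.912-fold to 1.57-fold. The SD of its log2 values was above that of 94.1% of the 4614 tested genes within 2-fold of its level. Without *Ltf*-KO replicate 2 the groups did not overlap, as for 18.8% of all genes tested. The log2 fold change was then 0.44 (limma, adjusted p = 0.980), past the unadjusted threshold of 0.05. Without *Ltf*-KO replicate 3 it was 0.13, the lowest value with a library left out.

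*Rb1* shares its locus on the opposite strand with *Rcbtb2* and *Lpar6*, and the strand setting of the counting is not given in the sources used here. *Rcbtb2* was at 26.4 to 30.8 TPM and *Lpar6* at 5.96 to 6.73 TPM, and whether reads of these genes entered the *Rb1* values was not tested. Annotated genes also lie opposite *Cdkn1a* (AC167363.2, 4.1 to 6.9 TPM), *Rbl2* (*Aktip*, 15.7 to 18.1 TPM) and *Cdkn1c* (*Gm44732*, at 1.19 TPM in WT replicate 3, 0.94 TPM in *Ltf*-KO replicate 3 and 0 in the others).

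The differences in *Rb1* between libraries went along in part with those of differentiating muscle. *Myog*, which encodes the factor that drives myoblasts into differentiation, was at 319.3, 410.31 and 293.44 TPM in WT and at 360.37, 266.24 and 507.77 TPM in *Ltf*-KO SCs. *Ltf*-KO replicate 3 was highest and *Ltf*-KO replicate 2 lowest for both genes, and the other libraries kept the same order apart from a swap of *Ltf*-KO replicate 1 and WT replicate 2. The 16 differentiation markers summed to 3375, 4248 and 3209 TPM in WT and to 3702, 3336 and 4981 TPM in *Ltf*-KO SCs, and 0 of 16 were at 0 in any library. This sum was highest in *Ltf*-KO replicate 3, as *Rb1* was, but lowest in WT replicate 3. Some of the markers, such as *Mef2c* and *Mymk*, were lowest in *Ltf*-KO replicate 2. Others, among them *Myh3*, *Acta1*, *Myl1* and *Ttn*, were lowest in a WT library. All 16 had a log2 fold change above 0, with a median of 0.15, and 0 had an unadjusted p under 0.05. Without *Ltf*-KO replicate 3 only 4 of the 16 were above 0, with a median of -0.022. The part of these markers in the *Rb1* values was not tested.

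Among 121 other listed genes, those whose pattern over the 6 libraries was most like that of *Rb1* were *Acta2*, an actin of smooth muscle and early myoblast differentiation, *Mymk*, the fusion protein myomaker, and *Mef2c*, a muscle transcription factor. Their root mean square differences from *Rb1*, on centred log2(TPM + 1) values, were 0.102, 0.108 and 0.115, where the median of the 121 genes was 0.242. *Mef2c* was at 10.5, 14.91 and 12.11 TPM in WT and at 14.85, 9.95 and 16.58 TPM in *Ltf*-KO SCs. For *Cdkn1c* the nearest genes were *Myh8*, *Rfc4* and *Mcm7*, at 0.295, 0.313 and 0.315 beside a median of 0.386. *Cdkn2b*, the next most variable member on this scale, was nearest to *Ccne1*, *Aurkb* and *E2f7*, at 0.053, 0.059 and 0.060 beside a median of 0.143. These are likenesses in 6 libraries that share culture and sequencing, and carry no test. The nearest genes lie below the median by the way they were picked. The median is also larger for a brake that varies more. The SD of the log2 values was 0.261 for *Rb1*, 0.424 for *Cdkn1c* and 0.121 for *Cdkn2b*.

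**Figure D3:**
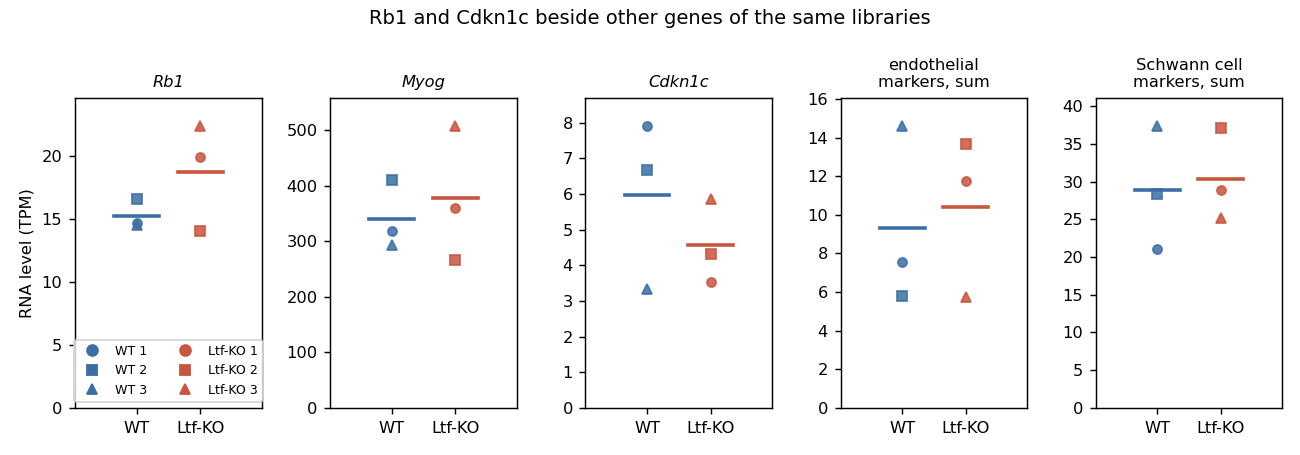
TPM of *Rb1*, *Myog* and *Cdkn1c* and summed TPM of 6 endothelial and 5 Schwann cell markers, on axes from 0. Blue marks are WT and red marks are *Ltf*-KO libraries, shapes give the replicate number and bars are the means of 3 libraries. *Rb1* and *Myog* are both highest in *Ltf*-KO replicate 3 (22.39 and 507.77 TPM), and *Cdkn1c* is lowest in WT replicate 3, where the endothelial sum is highest (14.59 TPM).

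*Rbl1*, the pocket protein gene whose p107 is found mainly in cycling cells (ENSMUSG00000027641, chromosome 2), was at 16.76, 15.93 and 15.55 TPM in WT and at 17.77, 14.71 and 15.19 TPM in *Ltf*-KO SCs. The *Ltf*-KO libraries held both the highest and the lowest values, and the log2 fold change was -0.020 (SE 0.081, 95% confidence interval -0.21 to 0.17). *Rbl2*, whose p130 is the pocket protein of resting cells (ENSMUSG00000031666, chromosome 8), was at 7.7, 8.01 and 9.01 TPM in WT and at 8.92, 7.89 and 7.63 TPM in *Ltf*-KO SCs. Its values were mixed between the genotypes, with a log2 fold change of -0.015 (SE 0.089, 95% confidence interval -0.23 to 0.20). *Rbl1* was above *Rbl2* in all 6 libraries. The 3 pocket protein genes summed to 39.6 ± 0.832 TPM in WT and 42.8 ± 5.40 TPM in *Ltf*-KO SCs (SD, n = 3), with overlap.

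The genes that the brakes act on, or that act on them, gave few differences at an unadjusted p, and 0 in any list at an adjusted p under 0.05 from limma. Of the 9 cyclins and kinases of G1 and S phase, 1 had an unadjusted p under 0.05. This was *Ccne2*, a partner of CDK2 and so a target of the CIP/KIP proteins, at 35.96 ± 0.988 TPM in WT and 31.5 ± 1.74 TPM in *Ltf*-KO SCs (SD, n = 3), with a log2 fold change of -0.18 (SE 0.054, limma, adjusted p = 0.999). Of 9 regulators of *Cdkn1a* and the Ink4 locus, 1 had an unadjusted p under 0.05. This was *Bmi1*, a Polycomb repressor of *Cdkn2a*, at 49.95, 43.51 and 49.81 TPM in WT and at 57.63, 58.69 and 51.01 TPM in *Ltf*-KO SCs, without overlap. The log2 fold change of *Bmi1* was 0.22 (SE 0.078, limma, adjusted p = 0.999), and it did not pass the unadjusted threshold with the replicate number as a block or without WT replicate 2, *Ltf*-KO replicate 1 or *Ltf*-KO replicate 2. *Trp53*, whose product p53 induces *Cdkn1a*, was at 181 to 204 TPM over the 6 libraries. The INK4 genes at the locus had log2 fold changes of 0.11 for *Cdkn2a* and 0.049 for *Cdkn2b*.

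Of the E2F and DP factors, the partners of the pocket proteins, 5 were above and 5 below 0 of 10 tested (3 above and 7 below with quantile normalization), and 0 had an unadjusted p under 0.05. The lowest p was that of *Tfdp2*, which had a log2 fold change of -0.13. *E2f4*, the main partner of p107 and p130, was at 74.4 to 80.6 TPM. Of the 5 DREAM and MuvB subunits tested, 1 was above 0 and 4 were below, with the lowest p for *Lin37*, at a log2 fold change of -0.20. Of 20 E2F target genes of S phase, which the pocket proteins repress, 4 were above and 16 below 0, with a median of -0.039, and 0 had an unadjusted p under 0.05. Of these 20, 4 (*Mcm2*, *Mcm5*, *Mcm6* and *Pcna*) were lower in *Ltf*-KO SCs without overlap, beside 8.46% of all genes tested in either direction. The lowest p was that of *Pcna*, the sliding clamp of DNA polymerase, at 303.7 ± 4.07 TPM in WT and 290.1 ± 0.889 TPM in *Ltf*-KO SCs (SD, n = 3), which passed the unadjusted threshold with no filter, quantile normalization or median-of-ratios scaling. Of 16 targets of DREAM in G2 and mitosis, 8 were above and 8 below 0, and 0 had an unadjusted p under 0.05, with the lowest p for *Aurkb*, at a log2 fold change of 0.12. Of these 16, 12 were above 0 without WT replicate 1 and 3 without WT replicate 3. The cell cycle pathway of the KEGG annotation in the table held 109 tested genes besides the brakes, among them genes of the lists above. Of these, 46 were above and 63 below 0, with a median of -0.013 and 1 at an unadjusted p under 0.05. Without WT replicate 1, 57 of the 109 were above 0.

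Among markers of other cells, 7 of 7 fibroblast genes tested had a log2 fold change above 0, with a median of 0.31. Of these, 0 had an unadjusted p under 0.05. The lowest p was that of *Col1a2*, just above the threshold (limma, unadjusted p = 0.0502), at a log2 fold change of 0.31 (SE 0.13). With a pseudocount of 0.1, at the filter of 10 TPM or without WT replicate 3, 1 fibroblast gene passed the unadjusted threshold. Without *Ltf*-KO replicate 3, 2 passed, and with the other alternatives 0 did. The 8 listed fibroblast markers summed to 118.9 to 123.62 TPM in WT and 119.29 to 157.42 TPM in *Ltf*-KO SCs, and most of this sum was *Col3a1*, at 88.0 to 117.7 TPM. Of 4 smooth muscle and pericyte markers tested, 1 had an unadjusted p under 0.05, *Pdgfrb*, at 4.11 ± 0.526 TPM in WT and 6.42 ± 1.43 TPM in *Ltf*-KO SCs (SD, n = 3), which did not pass without WT replicate 1, WT replicate 2, *Ltf*-KO replicate 1 or *Ltf*-KO replicate 2. The medians were 0.10 for 4 endothelial, 0.14 for 5 Schwann cell and -0.51 for 2 leukocyte genes tested, and -0.0025 for the 8 markers of SCs and myoblasts, each with 0 at an unadjusted p under 0.05. These medians moved with single libraries. Leaving out WT replicate 3 gave 0.42 for the endothelial, 0.33 for the Schwann cell and -0.81 for the leukocyte genes, leaving out WT replicate 2 gave an endothelial median of -0.10, and leaving out WT replicate 1 gave -0.099 for the Schwann cell and -0.20 for the leukocyte genes. The part of these cells in the levels of the brakes was not tested.

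**Figure D4:**
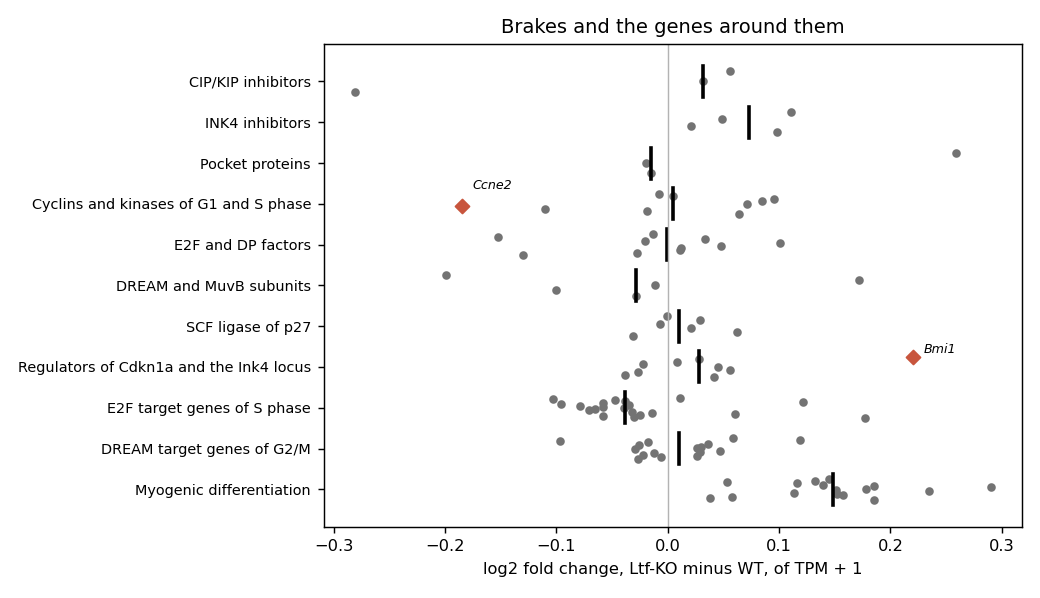
Log2 fold change of TPM + 1 in *Ltf*-KO against WT SCs for each tested gene (points) of the brakes and of the lists around them, with black bars for the median of each list. Markers of other cell types are not drawn. Red diamonds mark the genes drawn that had an unadjusted limma p under 0.05, *Ccne2* (-0.18) and *Bmi1* (0.22), and the differentiation list is the one with all 16 genes above 0.

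The annotation of the table grouped the brakes as their families would. The Pfam domain of CDK inhibitors was given to 3 genes of the table, which were *Cdkn1a*, *Cdkn1b* and *Cdkn1c*. Both Pfam pocket domains, RB_A and RB_B, were given to 3 genes, which were *Rb1*, *Rbl1* and *Rbl2*. An ankyrin repeat domain was given to 238 genes, among them *Cdkn2b*, *Cdkn2c* and *Cdkn2d* but not *Cdkn2a*. The GO term for CDK inhibitor activity was on 14 genes of the table, among them all 7 CDK inhibitors described here. The KEGG cellular senescence pathway held 6 of the 10 brakes (*Cdkn1a*, *Cdkn2a*, *Cdkn2b*, *Rb1*, *Rbl1* and *Rbl2*) among 174 genes.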

How the data were processed

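The 10 genes and all gene lists were chosen with earlier results of these data known. The authors deposited 1 table of TPM values, with 2 decimals and with GO, KEGG and Pfam annotation, made by the sequencing company's protocol. The submitters' processing notes name GRCm39. The aligner and counter are not given in the sources used here. The reference used here is GRCm38, so coordinates are printed only for promoter stretches, and overlaps between genes are those on GRCm38. All 6 libraries were grouped by genotype from the labels.

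The 12956 genes whose mean reached 1 TPM were tested with limma 3.58.1 (lmFit, eBayes with trend) in R 4.3.3 on log2(TPM + 1), two-sided, with no covariate, Benjamini-Hochberg adjustment and a threshold of 0.05. No count test was run, since the table holds no read counts. The fit was tested on simulated data. Alternatives were a pseudocount of 0.1, no filter, a higher filter (mean of 10 TPM or more), quantile normalization, median-of-ratios scaling, the replicate number as a block and each library left out in turn. No precision from depth could be given, as TPM keeps none.

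Promoter sequences were taken from RefSeq (GRCm38.p6), and transcripts of *Cdkn2a* and overlapping genes from GENCODE M21. The p53 motif, with the C and G of each half-site fixed, was added after the sequence had been seen. Named were all 10 genes, in each list those at an unadjusted p under 0.05 or else the lowest p, *Ltf*, *Ccnd1*, *Cdk4*, *Cdk6*, *E2f4* and the 3 genes most like each of the 3 most variable brakes. Overlapping genes, *Trp53*, *Myog*, the *Mcm* genes and single cell type markers were named after their values were seen. *Lin54* was not analysed here.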

Additional observations from a re-analysis of the deposited data

How the results depend on the processing

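With a pseudocount of 0.1, no filter, a filter at a mean of 10 TPM, quantile normalization, median-of-ratios scaling or the replicate block, 0 brakes had an unadjusted p under 0.05 and 0 genes an adjusted p under 0.05 from limma. At the filter of 10 TPM, *Cdkn1c* and *Rbl2* were not tested. Genes at an unadjusted p under 0.05 numbered 890 with no filter and 281 at the filter of 10 TPM, and those without overlap 1771 and 661, where more or fewer genes were tested. Among the 490 genes past the unadjusted threshold, 46.9% were lower in *Ltf*-KO SCs, as were 60.04% of 508 with quantile normalization and 55.8% of 502 with median-of-ratios scaling.

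With 1 library left out, 0 to 6 genes were called (6 without WT replicate 2, 5 without *Ltf*-KO replicate 1), 456 to 611 had an unadjusted p under 0.05, and 2183 to 2457 did not overlap, as fewer libraries overlap less. Of the brakes, 0 to 1 had an unadjusted p under 0.05 (*Rb1* without *Ltf*-KO replicate 2, *Cdkn1c* without WT replicate 3), and 0 to 2 did not overlap, among them *Rbl1* without *Ltf*-KO replicate 1 and *Cdkn2d* without *Ltf*-KO replicate 3. Of 118 log2 fold changes of brakes under the alternatives, 107 kept their direction and 11 reversed, all with a library left out, and *Cdkn1a*, *Cdkn1c*, *Cdkn2a*, *Cdkn2d* and *Rb1* kept theirs throughout. *Cdkn1a* ranged from 0.017 to 0.083, *Cdkn1c* from -0.59 to -0.072, *Cdkn2a* from 0.046 to 0.16, *Cdkn2d* from 0.038 to 0.149 and *Rb1* from 0.13 to 0.44. *Cdkn1b* ranged from -0.025 to 0.070, *Cdkn2b* from -0.00060 to 0.141, *Cdkn2c* from -0.047 to 0.072, *Rbl1* from -0.098 to 0.030 and *Rbl2* from -0.075 to 0.044. The cause was not tested.

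The labels give both genotypes replicate numbers 1 to 3. Same-numbered libraries deviated from their genotype's means with correlations of -0.041, -0.058 and -0.088 across genes. These values show no strong shared pattern, but cannot tell whether such libraries were prepared together. With the replicate block, 380 genes had an unadjusted p under 0.05, and it changed no count of calls among the brakes and pathway lists other than that of *Bmi1*.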
